A study of Mus musculus with 16 samples.

Results

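The genes described here make up the synaptic vesicle and its release machinery, 35 genes in all out of the 27807 in the table. They were taken by name, from a list chosen with earlier results of these data known, and each of the 35 was found. They comprise the 17 synaptotagmins Syt1 to Syt17, the synapsins Syn1, Syn2 and Syn3, synaptophysin (Syp), the synaptogyrins Syngr1, Syngr2 and Syngr3, the SNARE genes Snap25, Stx1a, Vamp1 and Vamp2, the active zone and priming genes Rims1, Rims2, Rims3, Unc13a and Unc13b, and the complexins Cplx1 and Cplx2.

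Neurons store transmitter in small vesicles and release it when calcium enters the nerve ending. Synaptobrevin (Vamp) on the vesicle zippers with syntaxin (Stx1a) and SNAP-25 on the plasma membrane, the RIM and Munc13 (Unc13) proteins dock and prime the vesicle, complexin binds the partly zippered complex, and a synaptotagmin with calcium-binding C2 domains triggers fusion. Not all of the family members are neuronal: several synaptotagmins, synaptogyrin 2 and Munc13 relatives also serve secretion or membrane traffic in other cells, and some synaptotagmins, such as Syt4 and Syt11, do not bind calcium in the usual way.

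Polyadenylated RNA was sequenced from mouse ES cells and from embryoid bodies, which are floating aggregates of differentiating ES cells, in a protocol that leads to neurons by way of retinoic acid. There were 8 groups of 2 libraries each: wild-type (WT) or Taf4a-/- (KO) cells, as ES cells, as embryoid bodies before retinoic acid (EB4), and as embryoid bodies at an earlier (EB5) and a later (EB8) time with it. The product of Taf4a is a subunit of TFIID, which places the TATA-binding protein on promoters for RNA polymerase II. The study derived 2 independent ES lines of each genotype from blastocysts of Taf4a heterozygous parents and grew them on embryonic fibroblast feeders. Per the methods the biological replicates came from these lines. The labels give the genotype, the stage and a replicate number of each library but not its line, and the p-values measure the spread between libraries of so few lines.

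Values are normalised read counts, that is, the reads of each gene after division by the size factor its library was given. The libraries held 22442118 to 40711826 reads in genes. The Taf4a gene itself did not check the labels: its normalised count ran from 1590.9 to 1959.6 in the 8 WT libraries and from 1972.8 to 2400.0 in the 8 KO libraries. The null allele lacks only a pair of internal exons, and a count over the whole gene does not show which exons the reads came from, so WT and KO denote the labels throughout. Genes whose mean over the 16 libraries reached 10 normalised counts were tested with limma, which kept 16124 genes and 32 of the 35 members. Syt8, Syt10 and Syt16 had means of 6.71, 2.74 and 9.65 and were not tested. None of the 32 would have fallen below 10 without the libraries of its highest group, although Syt2 and Syt6 would then have had means of only 10.08 and 10.12. A change is called below where the limma p-value, adjusted over the 16124 genes, was under 0.05.

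Several members carry near their start a match to the core of RE1, the element bound by the repressor REST, which keeps neuronal genes low in cells that are not neurons. The letters searched were CAGCACC and GGACAG with any 2 bases between them, on both strands, within 2000 bases of the gene start on build NCBI37. An exact match was found for 4 of the 32 tested members (12.5%), Snap25, Syt4, Syt6 and Syp, and for 64 of 16094 tested genes (0.398%). With up to 1 mismatch the match was found for 6 members (18.8%), Syn1 and Syt14 being added, and for 404 genes (2.51%). The motif was chosen with the expression of these genes already known, and a match is a description of the sequence, not a site shown to be bound. The matches are printed with the differences of these genes already known, and whether REST takes part in those differences was not tested. The element is in capitals with 7 flanking bases on each side, on the strand of the motif.
Snap25, intron, 837 bases after the start, chr2:136540019-136540047, plus strand: gggagctCAGCACCCTGGACAGgagtgct
Snap25, intron, 887 bases after the start, chr2:136540069-136540097, plus strand: gacctttCAGCACCGCGGACAGcgatccg
Syt6, 1240 bases before the start, chr3:103377907-103377935, plus strand: gaatcttCAGCACCGCGGACAGggacact
Syp, coding exon, 268 bases after the start, chrX:7215858-7215886, plus strand: cgcgctcCAGCACCGTGGACAGagcccgg
Syn1, 1 mismatch, 144 bases before the start, chrX:20498253-20498281, minus strand: tcggattCAGCACCGCGGTCAGagccttc
Syt14, 1 mismatch, 455 bases before the start, chr1:194862345-194862373, plus strand: aagcggtCAGGACCACGGACAGgtctccg
The match of Syt4 lay 219 bases after its start, in an exon.

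At EB8 the calcium sensors Syt1, Syt2 and Syt7, the membrane SNARE Snap25, synaptophysin, both complexins, the RIM gene Rims2 and the priming factor Unc13a were lower in KO than in WT, the calcium sensor Syt9 was higher, and the vesicle SNARE Vamp2, its relative Vamp1 and the syntaxin Stx1a did not pass the test. Of the 32 members tested, 12 were lower (37.5%, against 12.5% of all genes tested) and 3 were higher (9.38%, against 10.4%). Together, 15 of 32 (46.9%) were called, against 22.9% of all genes, and the median log2 change was -0.45 for the members and -0.029 for all genes. At the other stages the median of the members was -0.35 in ES cells, -0.81 at EB4 and -0.46 at EB5, against -0.003, -0.004 and -0.008 for all genes. Upper-quartile rescaling moved the median of all genes to 0.11 and the shares of all genes to 14.1% higher and 10.0% lower, and the members called stayed at 3 higher and 12 lower. Without WT EB8 replicate 2, 7 members were lower and 2 higher, against 6.36% and 5.46% of all genes. Both KO libraries lay below both WT libraries for 18 of the 32 members and above them for 6, against 33.5% and 30.4% of all genes. Such separation occurred for 21 members below and 5 above at EB4 (all genes 26.6% and 25.3%) and for 13 and 5 at EB5 (28.1% and 26.7%). In bulk RNA, fewer cells of a type and less RNA per cell cannot be told apart, and markers of neurons were lower along with the 12 lower members. All 10 neuronal markers were lower in KO at EB8 (median log2 change -4.15), and their summed normalised count was 29481.0 to 39113.3 in WT and 2189.2 to 2592.3 in KO, with none of the 10 at 0. The part of neuron number in the changes of the members was not tested.

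**Figure D1:**
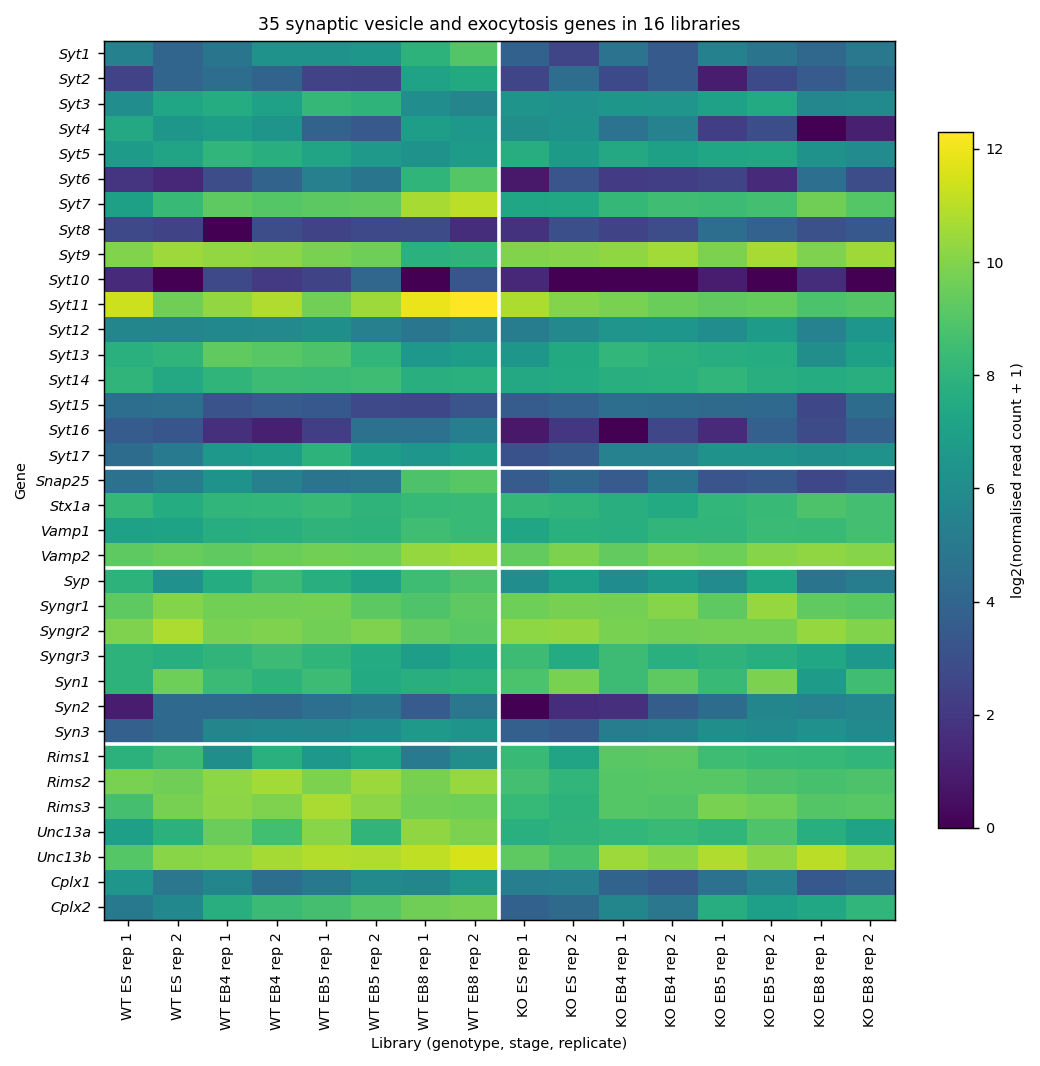
Heat map of the 35 genes (rows, grouped from top to bottom as synaptotagmins, SNAREs, vesicle membrane proteins, and active zone, priming and complexin genes) in 16 libraries (columns, WT left and KO right). Colour is log2(normalised read count + 1). The 2 WT EB8 libraries are bright for Syt1, Syt6, Syt7, Syt11, Snap25 and Cplx2, and the 2 KO EB8 libraries are dark for Syt4 and Snap25 while Syt9 stays bright.

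**Figure D2:**
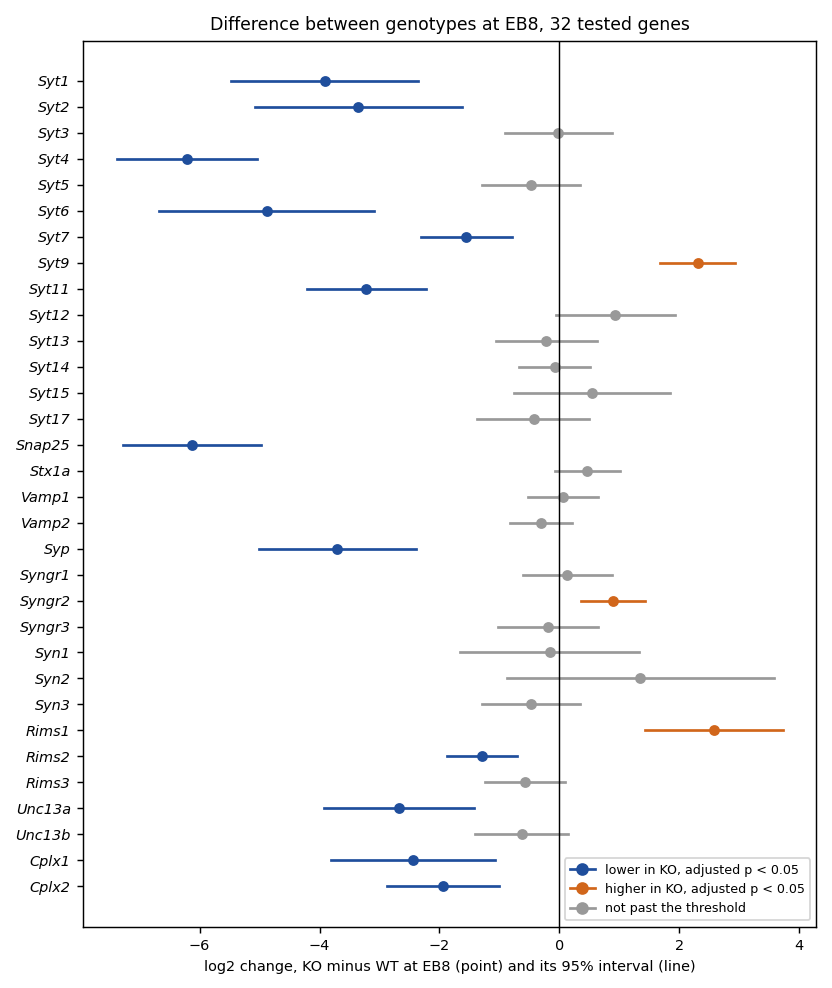
Log2 change between KO and WT at EB8 for the 32 tested genes, in the same order of roles, each point with its 95% interval from limma. The 12 genes lower in KO run from -6.21 to -1.29, the 3 higher from 0.89 to 2.58, and the 17 not past the threshold from -0.62 to 1.35.

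Among the synaptotagmins, 6 of the 14 tested were lower and 1 was higher in KO at EB8, against 12.5% and 10.4% of all genes tested. Syt1 (ENSMUSG00000035864, chr10:107934706-108448038), the calcium sensor of synchronous transmitter release in forebrain neurons, had 244.7 and 506.1 normalised counts in the WT EB8 libraries and 16.9 and 29.8 in the KO. The mean was 16.1-fold lower in KO (log2 change -3.91, SE 0.72, limma adjusted p = 0.0024). In WT the gene had risen from 26.3 and 79.3 at EB4, and in KO it had been at 24.5 and 10.2 there. The KO libraries at EB8 thus lay within the range seen in ES cells and early aggregates.

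Syt2 (ENSMUSG00000026452, chr1:136605877-136649726) is the sensor that takes the place of Syt1 at fast synapses of the hindbrain and spinal cord. It had 134.4 and 177.9 in WT EB8 against 10.6 and 19.2 in KO EB8, a mean 10.5-fold lower (log2 change -3.35, SE 0.79, limma adjusted p = 0.01). In the 12 libraries of the other stages it lay between 0.9 and 20.8. The WT EB8 libraries therefore stood alone in this gene, and its call was lost without WT EB8 replicate 2 (adjusted p = 0.0674) or KO EB8 replicate 1 (0.0733), the range over all alternatives being 0.000524 to 0.0733.

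Syt6 (ENSMUSG00000027849, chr3:103379154-103449490), one of the synaptotagmins joined as disulfide-linked dimers, went from 2.7 and 1.6 in WT ES cells through 6.6 and 13.9 at EB4 and 39.5 and 26.4 at EB5 to 264.6 and 532.6 at EB8. In KO it had 0.8 and 8.6 in ES cells, 3.5 and 3.8 at EB4, 4.7 and 1.9 at EB5 and 21.1 and 6.4 at EB8. The EB8 mean was 29.0-fold lower in KO (log2 change -4.88, SE 0.83, limma adjusted p = 0.0015). The rise in WT from EB4 to EB8 was the steepest of any tested member, at 38.9-fold (log2 change 5.15, SE 0.83, adjusted p = 0.000741). The exact RE1 match upstream of this gene is printed above.

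Syt4 (ENSMUSG00000024261, chromosome 18), which lacks the usual calcium binding and is linked to dense-core vesicles, followed another course. It was already present in WT ES cells at 167.5 and 90.1 and at EB4 at 116.2 and 80.4, was at 14.1 and 9.9 at EB5 and at 118.7 and 94.2 at EB8. In KO it had 65.6 and 77.9 in ES cells, 24.5 and 42.1 at EB4, 3.8 and 6.8 at EB5 and 0.0 and 1.1 at EB8. Both KO EB8 libraries were thus at or below 3 reads, the floor of detection, and the WT mean was at least 33.3-fold higher (log2 change -6.21, SE 0.54, limma adjusted p = 2.94e-05). Both genotypes had low values at EB5, and at EB8 the WT libraries were again near their EB4 values.

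Syt7 (ENSMUSG00000024743, chr19:10463580-10527671), the slow, high-affinity calcium sensor of asynchronous release, was less different. It had 1651.8 and 2137.7 in WT EB8 against 779.7 and 529.4 in KO EB8, a mean 2.90-fold lower in KO (log2 change -1.55, SE 0.35, limma adjusted p = 0.0077). Without WT EB8 replicate 2 the adjusted p was 0.0682 and without KO EB8 replicate 2 it was 0.0655, in a range over the alternatives of 0.000187 to 0.0682. From EB4 to EB8 the log2 change was 1.73 in WT (SE 0.35, adjusted p = 0.00306).

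Syt11 (ENSMUSG00000068923, chr3:88548622-88636219), which does not bind calcium and is linked to membrane recycling, was the most abundant member per kilobase of exon in WT EB8. Its normalised counts were 3922.2 and 5010.1 in WT EB8 against 445.2 and 508.1 in KO EB8, 9.37-fold lower in KO (log2 change -3.22, SE 0.45, limma adjusted p = 0.000533). In ES cells the WT libraries differed, at 2610.4 and 794.1, and the KO libraries had 1749.1 and 1039.2. In KO both EB8 values lay below every earlier KO value.

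Syt9 (ENSMUSG00000062542, chr7:114514242-114692170), a calcium sensor used in limbic neurons and in hormone secretion, had the opposite pattern. It was high in ES cells of both genotypes, where WT had 1004.8 and 1449.5 and KO 983.7 and 1067.8, and at EB4, where WT had 1251.6 and 1132.3 and KO 1203.3 and 1556.9. At EB8 the WT libraries had 231.0 and 256.2 and the KO libraries 973.8 and 1495.6. The mean was 5.07-fold higher in KO (log2 change 2.31, SE 0.29, limma adjusted p = 0.000262), and the KO EB8 libraries lay close to their ES and EB4 values.

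The 7 other tested synaptotagmins, Syt3, Syt5, Syt12, Syt13, Syt14, Syt15 and Syt17, did not pass the test at EB8, with log2 changes between -0.47 for Syt5 and 0.93 for Syt12. For 3 of them 95% intervals of the KO minus WT difference were -0.67 to 0.51 (Syt14), -0.9 to 0.87 (Syt3) and -1.06 to 0.62 (Syt13), which leave room for moderate differences. The sign of the small differences of Syt3 and Syt14 turned with the scaling and that of Syt15 with quantile normalisation. Of those not tested, Syt8 had 6.3 and 2.1 in WT EB8 against 7.4 and 9.6 in KO, Syt10 had 0.0 and 8.5 against 2.1 and 0.0, and Syt16 had 24.2 and 38.1 against 6.3 and 12.8. For Syt12, 950 of 5539 exon bases overlap a noncoding gene of the opposite strand. The libraries do not mark strand, so reads from such shared bases cannot be told apart.

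Of the SNARE genes, Snap25 alone passed the test at EB8. Snap25 (ENSMUSG00000027273, chr2:136539189-136608164) encodes the plasma membrane SNARE that supplies a pair of helices to the fusion complex. It had 461.0 and 554.8 in the WT EB8 libraries and 5.3 and 7.5 in the KO libraries, 79.8-fold lower in KO (log2 change -6.12, SE 0.53, limma adjusted p = 3.03e-05). In WT it had 23.7 and 35.9 in ES cells, 78.9 and 39.7 at EB4 and 25.4 and 28.6 at EB5, and in KO 10.8 and 16.4, 10.5 and 26.8, and 8.5 and 9.7 at the same stages. The KO EB8 values were the lowest of all 16 libraries, and the 2 intronic RE1 matches printed above lie near the start of this gene.

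The partners of SNAP-25 in the fusion complex had other courses. Vamp2, the synaptobrevin of synaptic vesicles, had 1314.7 and 1503.5 in WT EB8 against 1203.8 and 1080.2 in KO EB8 (log2 change -0.30, 95% interval -0.82 to 0.21). It lies on chromosome 11, whose level at EB8 was 0.26 and -0.07 in the KO libraries and -0.11 and -0.08 in the WT. These levels are on the log2 scale against the mean of the stage, and they are not subtracted here. Stx1a, the neuronal syntaxin, had 302.4 and 308.1 against 456.8 and 386.7 (0.46, -0.08 to 1.01), and Vamp1, the synaptobrevin of motor and hindbrain synapses, 363.3 and 311.3 against 312.3 and 390.9 (0.06, -0.53 to 0.64). The lower bounds of these intervals lie far from the change of Snap25. Within each library, the ratio of Snap25 to Vamp2 per kilobase of exon was 0.197 and 0.207 in WT EB8 against 0.00246 and 0.00387 in KO EB8, and that of Snap25 to Stx1a was 0.598 and 0.707 against 0.00453 and 0.00757. From EB4 to EB8, Vamp2 rose 2.06-fold in WT (log2 change 1.04, SE 0.24, limma adjusted p = 0.00634) and Stx1a rose 2.19-fold in KO (1.13, SE 0.25, adjusted p = 0.00961), and neither change was shown to differ between genotypes. The Vamp2 call was lost without WT EB4 replicate 1 (log2 change 0.92) or WT EB8 replicate 2 (0.94). That of Stx1a was lost without KO EB4 replicate 2 (1.04) or KO EB8 replicate 1 (1.01), and with only the compared groups fitted (limma adjusted p = 0.0577).

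Among the vesicle membrane proteins, Syp was lower and Syngr2 higher in KO at EB8, and the other 5 did not pass the test. Syp (ENSMUSG00000031144, chrX:7215597-7230382), synaptophysin, binds synaptobrevin and is the classical marker of synaptic vesicles. It had 352.8 and 465.9 in WT EB8 against 25.3 and 36.2 in KO EB8, 13.3-fold lower in KO (log2 change -3.70, SE 0.60, limma adjusted p = 0.00121). At EB4 the WT libraries had 194.0 and 348.5 and the KO libraries 61.9 and 94.4, without passing the test. The KO EB8 values were the lowest of the 16 libraries.

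Syngr2 (ENSMUSG00000048277, chr11:117670982-117675597), cellugyrin, is the synaptogyrin of vesicles outside neurons. It had 651.1 and 570.7 in WT EB8 against 1290.3 and 997.1 in KO EB8, 1.87-fold higher in KO (log2 change 0.89, SE 0.25, limma adjusted p = 0.0203). This was the least firm of the 15 calls, being lost in 3 of 4 fits with 1 EB8 library left out (adjusted p = 0.0546 without WT replicate 1, 0.116 without WT replicate 2 and 0.144 without KO replicate 1, with 0.0045 the lowest over all alternatives). Syngr2 lies on chromosome 11, whose genes as a whole stood higher in KO replicate 1 (by 0.26 on the log2 scale at EB8, against the mean of the 4 libraries of the stage), and the gene remained called with the chromosome's level subtracted. It shares 136 of its 1721 exon bases with Afmid on the same strand, whose highest normalised count was 74.6.

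The synapsins, phosphoproteins that tether vesicles in a reserve pool, did not pass the test at EB8. Syn1 had 207.9 and 238.2 in WT EB8 against 107.6 and 366.4 in KO EB8, so that the KO libraries lay on both sides of the WT. The interval of its difference, -1.65 to 1.33, was wide. This gene is on the X chromosome, whose level was 0.45 higher in KO EB8 replicate 2 and 0.19 lower in replicate 1 than the mean of the 4 EB8 libraries on the log2 scale. Syn2 had 10.5 and 28.6 against 42.2 and 50.1 (log2 change 1.35, -0.88 to 3.58), and Syn3 99.8 and 81.5 against 72.8 and 57.5 (-0.47, -1.29 to 0.35). Syn3 shares 1733 of its 12282 exon bases with Timp3 on the opposite strand, so its reads are uncertain. Syngr1 and Syngr3 had log2 changes of 0.13 and -0.19, both smaller than their SE of 0.34 and 0.39.

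The active zone and priming genes divided by family member. Rims1 and Rims2 encode the large RIM scaffolds that bind Rab3 on vesicles, Munc13 and calcium channels. Rims2 (ENSMUSG00000037386, chr15:39029878-39513486) had 881.0 and 1347.8 in WT EB8 against 421.0 and 467.6 in KO EB8, 2.51-fold lower in KO (log2 change -1.29, SE 0.27, limma adjusted p = 0.00503), and the call was lost without WT EB8 replicate 2 (adjusted p = 0.0608, the highest of its alternatives, the lowest being 5.25e-05). Rims1 (ENSMUSG00000041670, chr1:22276332-22911673) had 33.6 and 65.6 in WT EB8 against 299.6 and 271.6 in KO EB8, 5.76-fold higher in KO (log2 change 2.58, SE 0.53, adjusted p = 0.00487). The ratio of Rims1 to Rims2 per kilobase was 0.0284 and 0.0362 in the WT EB8 libraries and 0.53 and 0.432 in the KO.

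At EB4, 3 of 32 members were called (9.38%, against 6.12% of all genes), namely Rims1 higher (3.12%, against 2.75%) and Rims2 and Cplx2 lower in KO (6.25%, against 3.37%). Rims1 had 69.0 and 222.0 in WT EB4 against 560.8 and 590.9 in KO EB4 (log2 change 2.21, SE 0.53, limma adjusted p = 0.0339), and the WT libraries stood far apart. Without WT EB4 replicate 1 its log2 change was 1.37 (adjusted p = 0.186), and it was also not called without either KO EB4 library, in edgeR or with no filter on low values. Rims2 had 1177.1 and 1523.7 against 536.2 and 551.3 at EB4 (-1.30, SE 0.27, adjusted p = 0.0193) and 945.7 and 1379.3 against 541.4 and 461.6 at EB5 (-1.19, SE 0.27, adjusted p = 0.0322). Its EB4 call was lost without WT EB4 replicate 2 or without either KO EB4 library, with log2 changes of -1.11, -1.28 and -1.32. Its EB5 call was lost without WT EB5 replicate 2 or without either KO EB5 library, with log2 changes of -0.92, -1.31 and -1.08. Each of these fits also called fewer of all genes than the main fit.

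Rims2 was the only member called at EB5 (1 of 32, 3.12%, against 4.34% of all genes, or 2.17% for genes lower in KO). In ES cells no member was called, nor any of the 16124 genes (0.0%) in limma, although 1846 genes had an unadjusted p below 0.05. In that comparison the WT values of Rims2 were 906.5 and 792.5 and the KO values 397.6 and 269.4 (log2 change -1.37, 95% interval -1.95 to -0.78, adjusted p = 0.0972), and Rims3 408.7 and 861.9 against 300.5 and 243.7 (-1.13, -1.80 to -0.46, adjusted p = 0.161). DESeq2 called both of these in ES cells, and edgeR called neither. In Rims2 the KO libraries lay below the WT libraries at each of the 4 stages, and the size of the log2 difference stayed between -1.37 and -1.19.

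Rims3, which encodes a short RIM protein without the Munc13-binding part, had 813.8 and 756.0 in WT EB8 against 511.7 and 545.4 in KO EB8 and did not pass the test (log2 change -0.57, 95% interval -1.24 to 0.10). Unc13a (ENSMUSG00000034799, chr8:74150614-74195656) encodes Munc13-1, the main priming factor of glutamatergic synapses. It had 1205.5 and 937.0 in WT EB8 against 205.7 and 134.2 in KO EB8, 6.30-fold lower in KO (-2.67, SE 0.58, limma adjusted p = 0.00621). In WT the replicates stood apart at EB4, with 744.2 and 376.4, and at EB5, with 1118.8 and 262.5. The gene lies on chromosome 8, whose genes as a whole were 0.35 to 0.37 higher on the log2 scale in WT replicate 1 than the mean of the stage at EB4, EB5 and EB8, and it stayed called at EB8 with that level subtracted and without any 1 EB8 library. Its relative Unc13b, which also primes vesicles in cells outside the nervous system, had 2227.3 and 2988.9 against 2058.4 and 1362.4 (-0.62, -1.40 to 0.15).

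Both complexins were lower in KO at EB8. Complexins are small cytosolic proteins that clamp and then promote SNARE-driven fusion. Cplx1 (ENSMUSG00000033615, chr5:108947573-108979043) had 49.4 and 83.6 in WT EB8 against 9.5 and 12.8 in KO EB8, 5.97-fold lower in KO (log2 change -2.44, SE 0.63, limma adjusted p = 0.0156). Cplx2 (ENSMUSG00000025867, chr13:54472713-54485278) had 785.5 and 862.9 against 166.7 and 275.9, 3.72-fold lower in KO (-1.94, SE 0.43, adjusted p = 0.00706). Without KO EB8 replicate 1 the adjusted p was 0.0866 for Cplx1 and 0.0671 for Cplx2, and without WT EB8 replicate 2 it was 0.11 and 0.0508, while over all alternatives it went down to 0.00404 and 4.6e-05.

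Cplx2 also had the clearest early difference. At EB4 its WT values were 215.9 and 327.1 and its KO values 49.1 and 28.1, 7.04-fold lower in KO (log2 change -2.81, SE 0.43, limma adjusted p = 0.00826). The call was lost when only the EB4 groups were fitted (limma adjusted p = 0.141, the highest of its alternatives, with 8.1e-08 the lowest). That fit called 0 of the 16124 genes in either direction, so this loss is not particular to Cplx2. The call was also lost without KO EB4 replicate 2, where the log2 change was -2.41, in a fit that called fewer of all genes than the main fit. From EB4 to EB8 it rose in both genotypes, 3.04-fold in WT (1.63, SE 0.43, adjusted p = 0.0141) and 5.74-fold in KO (2.50, SE 0.43, adjusted p = 0.00247). At each of the 4 stages both KO libraries were below both WT libraries. In ES cells, where no member was called, the values were 30.0 and 52.6 in WT against 13.3 and 17.9 in KO.

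**Figure D3:**
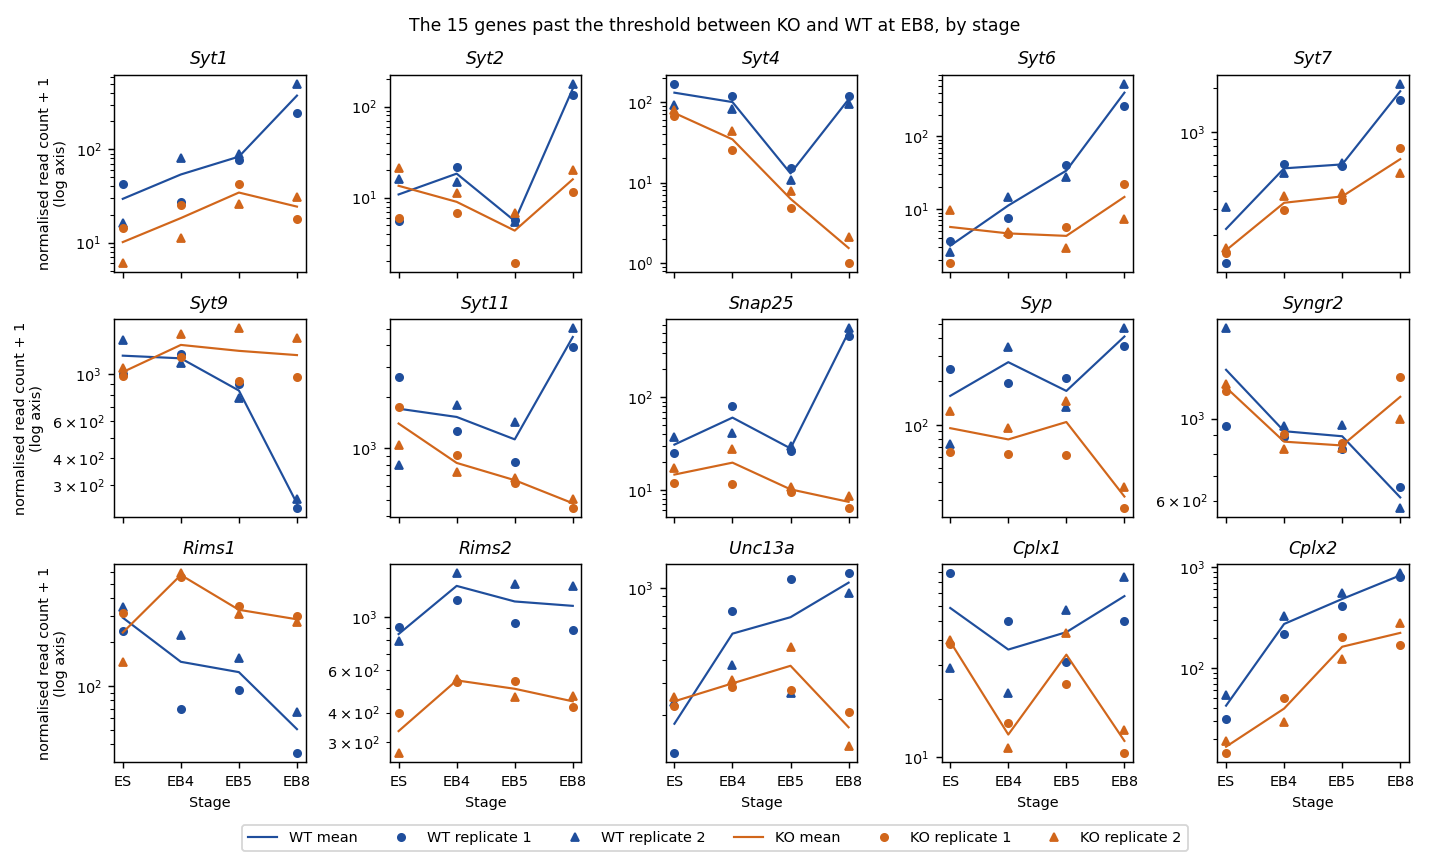
Normalised read count + 1 on a log axis at the 4 stages for the 15 genes past the threshold at EB8, with WT in blue and KO in orange. Circles and triangles are replicates 1 and 2 and lines join their arithmetic means. Syt6 rises in WT up to EB8, Snap25 is highest in WT at EB8, both are low in KO at EB8, Syt4 is low at EB5 in both genotypes, Syt9 falls in WT, and at the embryoid body stages KO lies above WT for Rims1 and below it for Rims2.

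The course of the members within each genotype was followed over 2 steps. From ES cells to EB4, 5 members rose in WT (15.6%, against 8.98% of all genes rising) and none fell (against 7.57%), while 16.5% of all genes changed in either direction. These were Cplx2 from 30.0 and 52.6 to 215.9 and 327.1, Syt17 from 19.1 and 32.7 to 92.1 and 113.7, Syn3 from 12.7 and 17.5 to 47.1 and 52.5, Syt7 from 127.4 and 310.9 to 602.8 and 530.8, and Syt13 from 222.1 and 259.1 to 623.6 and 555.4. Their log2 changes lay between 1.29 and 2.71. With 1 of the 4 WT libraries left out in turn, the log2 changes ranged from 2.31 to 3.1 for Cplx2 and 1.62 to 2.36 for Syt17. They ranged from 1.45 to 1.89 for Syn3, 0.86 to 2.14 for Syt7 and 1.18 to 1.4 for Syt13. Syt13 was lost without any 1 of the 4 WT libraries, and Syt7, Syt17 and Syn3 each without 2 of them. In KO, 2 members rose (6.25%, against 2.51% of all genes) and none fell (against 0.992%), with 3.5% of all genes changed in either direction. These were Syt17 by 2.20 and Syn3 by 1.70 on the log2 scale, and each call was lost without any 1 of the 4 KO libraries. The interaction between genotype and this step called no member and none of the 16124 genes (0.0%), with 1129 genes at an unadjusted p below 0.05. The WT libraries of this step differed in chromosome level, on the log2 scale against the mean of the stage. Chromosome 8 was at -0.02 in WT ES replicate 1 and at 0.37 in WT EB4 replicate 1. The X chromosome was at -0.37 and 0.36 in the WT ES libraries and at -0.19 and -0.13 at EB4. As the labels do not give the line, a difference between lines cannot be told apart from the change of stage in WT.

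From EB4 to EB8, 12 members changed in WT (37.5%, against 27.2% of all genes). The 8 that rose were Syt1, Syt2, Syt6, Syt7, Syt11, Snap25, Vamp2 and Cplx2 (25.0%, against 15.0% of all genes rising), by 1.04 to 5.15 on the log2 scale. The 4 that fell were Syt3, Syt5, Syt9 and Syt13 (12.5%, against 12.2%), by 1.34 to 2.47 on that scale. Without WT EB8 replicate 2, 3 members rose (8.96% of all genes), and without WT EB4 replicate 1, 4 did (8.89%). In KO, 4 members changed (12.5%, against 18.5%). With an estimated correlation within genotype and replicate number, 5 rose and 4 fell (12.6% and 11.6% of all genes). Without it, Stx1a and Cplx2 rose (6.25%, against 9.86%), and Syt4 and Syt13 fell (6.25%, against 8.67%). Syt13, a synaptotagmin without calcium binding, thus fell in both genotypes, from 623.6 and 555.4 to 94.5 and 117.5 in WT (-2.47, SE 0.38, limma adjusted p = 0.000599) and from 281.5 and 241.2 to 65.4 and 124.6 in KO (-1.52, SE 0.38, adjusted p = 0.0179). In KO this call was lost without either EB4 library or without EB8 replicate 1.

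Of the 12 members lower in KO at EB8, 7 had risen in WT from EB4 to EB8, namely Syt1, Syt2, Syt6, Syt7, Syt11, Snap25 and Cplx2. These comparisons share the WT EB8 libraries, so the shared members are not a separate result. The difference between the genotypes in the change itself was tested by the interaction term, which called 3 members (9.38%, against 2.75% of all genes), 2 lower (6.25%, against 1.71%) and 1 higher (3.12%, against 1.04%). The KO change minus the WT change was -4.66 on the log2 scale for Syt4 (SE 0.76, limma adjusted p = 0.0105), -4.45 for Snap25 (SE 0.75, adjusted p = 0.0106) and 2.10 for Syt9 (SE 0.41, adjusted p = 0.0202). The changes of the other 29 members from EB4 to EB8 were not shown to differ between genotypes.

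**Figure D4:**
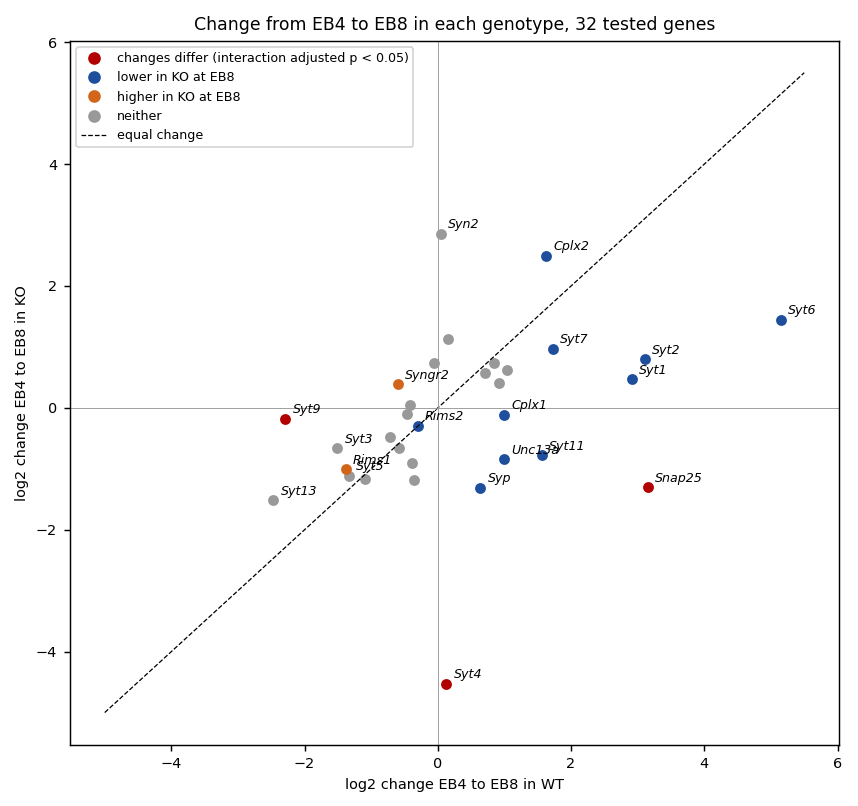
Log2 change from EB4 to EB8 in WT (horizontal) and in KO (vertical) for the 32 tested genes, with a dashed line of equal change. Red points are the 3 genes whose changes differ by the interaction test. Snap25 lies at 3.15 in WT and below 0 in KO, Syt4 near 0 in WT and at -4.53 in KO, Syt9 at -2.29 in WT and near 0 in KO, and Cplx2 is above 0 in both.

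The order of levels per kilobase of exon, the scale on which genes can be compared, differed between the genotypes at EB8. In WT the 5 highest means were Syt11 at 852, Vamp2 at 370, Syngr2 at 355, Syt7 at 272 and Rims2 at 206 normalised counts per kilobase. The replicates of Vamp2 (345.2 and 394.7) and Syngr2 (378.3 and 331.6) overlapped, as did those of Syt7 (237.1 and 306.9) and Rims2 (163.1 and 249.5), and Rims2 spanned Unc13b in sixth place (164.9 and 221.3), so the order among these is undecided. In KO the highest were Syngr2 at 665, Syt9 at 310, Vamp2 at 300, Stx1a at 158 and Unc13b at 127, and the replicates of Syt9 (244.7 and 375.9) spanned those of Vamp2 (316.0 and 283.6). Those of Unc13b (152.4 and 100.9) overlapped both Stx1a (171.4 and 145.0) and Syngr1 (129.9 and 118.8), so the order of these 3 is undecided apart from Stx1a above Syngr1. Between calcium sensors, the ratio of Syt9 to Syt1 per kilobase was 1.98 and 1.06 in WT EB8 against 121 and 105 in KO EB8. In the WT ES libraries it had been 50.3 and 201.

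Other genes of vesicle traffic, release and transmitter transport were followed as a list of 82 names. Of these, 80 were in the table and 74 were tested. At EB8, 23 were lower and 10 higher in KO (median log2 change -0.06, with 12.5% and 10.4% of all genes called lower and higher), and at EB4 3 and 2, at EB5 0 and 1, and in ES cells 0 and 0. The largest falls were in Slc6a5, the glycine transporter of inhibitory neurons, with 277.2 and 555.9 in WT against 5.3 and 7.5 in KO (-5.76, SE 0.82, limma adjusted p = 0.000548), Rab3c, a vesicle GTPase bound by RIM, with 273.0 and 473.3 against 5.3 and 6.4 (-5.73, SE 0.76, adjusted p = 0.00037), and Sv2b, a vesicle glycoprotein, with 115.5 and 130.2 against 2.1 and 3.2 (at least 38.5-fold higher in WT, the KO libraries being at 3 reads or fewer). The largest rises were in Rab27a, a GTPase of secretory granules and lysosome-related organelles (101.9 and 80.5 against 570.8 and 431.4), Sytl1, which binds it (27.3 and 47.6 against 132.9 and 151.3), and Esyt3, an extended synaptotagmin at membrane contacts (59.9 and 62.5 against 213.1 and 184.3).

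The repressor REST and its partners, 8 genes, were measured beside the RE1 matches. Rest itself had 2337.6 and 2427.8 normalised counts in WT EB8 against 4443.9 and 4135.3 in KO EB8, 1.80-fold higher in KO (log2 change 0.85, SE 0.16, limma adjusted p = 0.00329). Hdac1 was also higher (0.76), Rcor2 and Hdac2 were lower (-1.61 and -1.03), and the other 4 did not pass the test. Of the 6 members with a match of up to 1 mismatch, Snap25, Syt4, Syt6 and Syp were lower in KO at EB8, and Syn1 and Syt14 did not pass the test. Whether REST takes part in these differences was not tested.

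Markers of other cell types moved with genotype at EB8 as well. Of 6 tested neural progenitor markers 5 were lower in KO (summed count 25746.3 to 28471.9 in WT and 4823.3 to 4913.4 in KO), and of 6 pluripotency markers 5 were higher (1283.2 to 1520.4 against 18934.2 to 20800.8). None of 6 fibroblast, 3 cardiac or 3 glial markers passed the test, 2 of 4 endoderm markers were lower, and of 3 neuroendocrine and crest markers 1 was higher and 2 were lower. The summed fibroblast markers were 2104.4 to 2772.9 in WT EB8 against 876.8 to 3137.0 in KO EB8. Before EB8 these sums were lower in KO, at 209.1 to 493.7 against 1033.0 to 2650.2 in ES cells. They were 449.7 to 490.1 against 890.0 to 1336.1 at EB4, and 979.4 to 1028.6 against 1532.0 to 2233.9 at EB5. None of the 6 tested fibroblast markers was called at those stages. Neural progenitor sums were 3356.2 to 5385.5 in KO against 10766.0 to 11701.8 in WT at EB4, and overlapped in ES cells. The neuronal list was not at 0 before differentiation, its sum being 11003.5 to 15497.2 in the 4 ES libraries, so that it does not mark neurons alone. The part of these cell types in the members' changes was not tested.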

How the data were processed

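RNA-seq was analysed in 16 libraries, 2 in each of 8 groups of genotype and stage named by the labels. Per the methods and the submitters' processing notes, single-end reads of poly-A libraries (TruSeq, which does not mark strand in this version) were processed with CASAVA 1.7 or 1.8, TopHat2 2.0.10 on mm9 (NCBI37), HTSeq 0.5.4p3 and DESeq2 1.0.19; the annotation release and strand setting are not given in the sources used here. The deposited values are a normalised signal, the read count of each gene divided by a size factor by the authors. Whole reads were recovered in every library (100.0% of values within 0.01 of a whole number), and gave the depth of 22442118 to 40711826 reads. Floors (3 reads) cover counting error only.

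The main test was limma 3.58.1 (R 4.3.3) on log2(normalised count + 1), with 8 group means over all 16 libraries, eBayes with trend (8 residual and 4.27 prior degrees of freedom), 16124 genes of mean at least 10, and Benjamini-Hochberg adjustment at 0.05. Fold changes named in the text are ratios of mean normalised counts; log2 changes are on the log2(value + 1) scale, which understates those of low genes. edgeR 4.0.16 and DESeq2 1.42.0 on the recovered reads were alternatives. The scripts were tested on simulated data. Positions come from GENCODE M1 on NCBI37 (27603 of 27807 identifiers matched). Python 3.11.15 was used for the other steps. The members and lists, and the rule for named genes, were chosen with earlier results of these data known. Members called in any comparison of genotypes are given in full, the others by range, interval or level; of the related genes the 3 largest rises and falls are named. Several further values of members were named after they were seen. In the lists, Sox1, Slc18a3 and Cplx4 were not found by name, and Map2 was found as Mtap2.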

Additional observations from a re-analysis of the deposited data

Results flagged for a closer look

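For 3 members the change from EB4 to EB8 differed between the genotypes by the interaction term of limma. Snap25 rose in WT from 78.9 and 39.7 to 461.0 and 554.8 normalised counts and had 10.5 and 26.8, then 5.3 and 7.5, in KO, a difference of changes of -4.45 on the log2 scale (SE 0.75, adjusted p = 0.0106). It was not past the threshold without WT EB8 replicate 2 (adjusted p = 0.0528, the highest of its alternatives, the lowest being 5.15e-06). Syt4 had 116.2 and 80.4, then 118.7 and 94.2, in WT and went from 24.5 and 42.1 to 0.0 and 1.1 in KO, a difference of -4.66 (SE 0.76, adjusted p = 0.0105, and 0.00345 to 0.0451 over the alternatives). As the KO EB8 libraries were at the floor, this fitted difference depends on the pseudocount and is not a bound.

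Syt9 fell in WT from 1251.6 and 1132.3 to 231.0 and 256.2 and had 1203.3 and 1556.9, then 973.8 and 1495.6, in KO, a difference of 2.10 (SE 0.41, adjusted p = 0.0202). It missed the threshold in 5 of the 8 fits that left out 1 library, those without WT EB4 replicate 1 (0.0548), WT EB8 replicate 1 (0.0621), WT EB8 replicate 2 (0.0601), KO EB4 replicate 1 (0.0734) and KO EB8 replicate 2 (0.0651), and the lowest adjusted p of all alternatives was 0.000151.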

How the results depend on the processing

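At EB8 the 15 calls stood in the pseudocount, no-filter, scaling, compared-groups, block, edgeR, DESeq2 and chromosome-level alternatives. With a mean of at least 50, Syt2 and Cplx1 were not tested, a log2 change of at least 1 removed Syngr2, and a threshold of 0.01 removed Syt2, Cplx1 and Syngr2. Leaving out 1 library gave 7 to 12 members lower and 2 to 3 higher at EB8, the 7 being without WT EB8 replicate 2, with 6.36% to 8.38% of all genes lower and 5.46% to 6.92% higher in these fits. Elsewhere leaving out 1 library gave 0 to 1 lower in ES cells, 0 to 1 higher and 0 to 2 lower at EB4, 0 to 1 lower at EB5, 1 to 6 higher and 0 to 1 lower from ES to EB4 in WT, 0 higher in KO, 3 to 7 higher and 3 to 4 lower from EB4 to EB8 in WT, 1 to 2 higher and 1 to 2 lower in KO, and 0 to 1 higher and 1 to 2 lower in the interaction of EB4 to EB8. Apart from ES cells, where the main fit called no gene, each of these fits also called a smaller share of all genes than the main fit, in either direction. A member count below that of the main fit is therefore not particular to the members. The rise from ES to EB4 in WT went otherwise. Its counts of 1 and 6 came without WT ES replicate 1 and replicate 2, fits that called nearly equal shares of all genes higher. The single library left in a group was assumed to vary like the other groups.

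The counts outside EB8 were small and moved. DESeq2 called 2 members lower in ES cells, 7 lower at EB4, 3 lower at EB5, 4 higher from ES to EB4 in KO and 4 lower from EB4 to EB8 in KO, where it called 2.31%, 7.27%, 5.63%, 6.38% and 11.6% of all genes in that direction. Rims1 at EB4 was lost with no filter, with only the compared groups, in edgeR and at 0.01 (0 higher each). Fitting only the compared groups left 0 lower at EB4, 0 lower at EB5 and 0 higher from ES to EB4 in either genotype. From EB4 to EB8 it left 2 lower in WT, and 1 higher and 1 lower in KO. These fits have fewer residual degrees of freedom by construction. Of all 16124 genes they called 0 lower at EB4, 22 lower at EB5, and 0 and 12 higher from ES to EB4 in WT and KO. From EB4 to EB8 they called 1221 genes lower in WT, and 912 higher and 777 lower in KO. The threshold of 0.01 left 1 lower at EB4, 0 at EB5, and 1 higher from ES to EB4 in WT and 0 in KO. From EB4 to EB8 it left 5 higher and 2 lower in WT, 1 lower in KO, and 0 in either direction in the interaction. Over all genes it left 44 lower at EB4, 15 lower at EB5, and 503 and 40 higher from ES to EB4 in WT and KO. From EB4 to EB8 it left 1444 genes higher and 1001 lower in WT, 491 lower in KO, and 14 higher and 43 lower in the interaction. Quantile normalisation gave 4 lower at EB5 (412 of all genes) and 1 higher from ES to EB4 in KO (278 of all genes). From EB4 to EB8 it gave 7 lower in WT and 5 lower in KO (2313 and 1281 of all genes). A pseudocount of 5 gave 3 lower at EB5 (409 of all genes). Either change of the filter gave 1 higher from ES to EB4 in KO. There, 222 of 27807 genes were higher with no filter and 445 of 13046 with a mean of at least 50. For these the cause was not tested.

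Same-numbered libraries of the genotypes did not deviate together at EB4, EB5 or EB8 (correlation across genes -0.058, -0.209 and -0.133). In ES cells the correlation was 0.335. The numbers therefore do not pair libraries across genotypes at the embryoid body stages, and for the ES libraries this was left undecided. The replicate block gave 2 members lower at EB5 in place of 1 (474 of all genes, against 350 in the main fit). It moved no other count by over 1.5 times. Within a genotype same-numbered libraries did deviate together across the embryoid body stages in WT (0.523 to 0.605) and across all stages in KO (0.233 to 0.422), but not between ES cells and embryoid bodies in WT (-0.179 to -0.048). A correlation estimated within genotype and replicate number (0.166), added after seeing these values, gave 5 members higher and 4 lower from EB4 to EB8 in KO and left the other counts within 1.5 times, with 3 higher and 12 lower at EB8. With the KO numbers crossed, added after seeing these correlations, 1 member was higher and 2 were lower at EB5 (499 and 501 of all genes). From ES to EB4 in WT, 1 was lower (1458 of all genes).

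Small differences that were not called changed sign at EB8: Syt3 with upper-quartile rescaling (0.12), Syt14 with that and with quantile normalisation (0.06 and 0.05), Syt15 with quantile normalisation (-0.11) and Syn1 in edgeR and DESeq2 (0.10 and 0.09). Leaving out 1 library also turned the sign of Syt3 (-0.24 to 0.21), Syt13 (-0.68 to 0.24), Syt14 (-0.17 to 0.01), Syt15 (-0.29 to 1.39), Syn1 (-1.04 to 0.72), Syngr1 (-0.04 to 0.30), Syngr3 (-0.57 to 0.20) and Vamp1 (-0.11 to 0.22). Members near 10 counts, such as Syt15, could show only large differences at this depth.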
